A study of Mus musculus with 36 samples.

Results

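The genes described here encode the laminin chains and integrin subunits, the ligand and receptor families of the basement membrane. They were chosen by name: every probe of the deposited table was taken whose symbol begins with Lama, Lamb, Lamc, Itga or Itgb followed by a chain number or letter. A probe was kept where its detection p-value, its rank against the negative-control beads of the array, was under 0.01 on at least 1 of 36 arrays. The names matched 92 probes for 43 symbols, and 39 probes for 29 genes were kept. Over the whole deposit 21712 of 45281 probes, for 15556 of 30869 symbols, passed the same filter. No kept probe stood for 14 matched symbols, namely Itga4, Itga7, Itga9, Itgad, Itgam, Itgax, Itgb1bp2, Itgb1bp3, Itgb2, Itgb2l, Itgb3, Itgb7, Lama4 and Lamc3. Of the 29 genes, 26 encode subunits, made up of 9 laminin chains, 12 integrin α subunits and 5 integrin β subunits. The other 3, Itgb1bp1, Itgb3bp and Itgb4bp (current symbol Eif6), carry an integrin in their name without encoding a subunit and are described apart. Each gene is shown by its kept probe with the highest mean level, called its lead probe.

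Pieces were microdissected from wild-type MF1 mouse embryos, and their RNA was hybridised to Illumina MouseWG-6 v2.0 arrays, at stages from the E7.5 headfold embryo to the E13.5 tail bud, to follow the progenitors that build the body axis. The E7.5 embryo gave 3 regions: A, the anterior; P, the posterior; and PP, the proximal part of the posterior. Embryos of E8.5, with few somites, gave RN, the rostral node; NSB, where node and streak meet; CLE, the lateral epiblast of the caudal embryo; and St1 and St5, the front and rear ends of the primitive streak. From E9.5 onwards the chordoneural hinge (CNH) was dissected, up to E13.5, together with the tissue posterior to it (P-CNH) up to E11.5; NSB, CLE and CNH hold the neuromesodermal progenitors (NMPs). There were 4 regions with 3 arrays (A, NSB, CLE and E11.5 CNH) and 12 regions with 2. No group was treated or carried a mutant allele. Each array held the RNA of 6 to 74 pooled pieces, so an array is a pool of embryos and every piece is a mixture of cell types. Endoderm was attached to the samples of E8.5 and earlier except the CLE, and surface ectoderm belongs to the tissue expected in St5 and in the E13.5 CNH. In such bulk samples fewer cells that carry an RNA and less RNA per cell cannot be told apart.

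Laminins are secreted trimers of an α, a β and a γ chain that polymerise into the sheet on which epithelia rest; the α chain carries the main contacts with cell receptors. Integrins are membrane heterodimers of an α and a β subunit, and the α subunit largely sets the ligand, with Itga3 and Itga6 for laminins, Itga5 for fibronectin and Itga11 for collagens. In the gastrulating embryo cells leave the epiblast through a breach in this sheet at the primitive streak, and the matrix between tissues persists as a substrate in the tail bud.

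Intensities are given on the log2 scale after background correction and quantile normalisation, and values of different probes are not comparable as amounts. Between 10814 and 16256 probes were detected per array (median 15054), and the number of arrays limits the precision of every difference. The labels divide the arrays into 3 batches of 12. Batch 1 holds RN, St1, St5, the E10.5 CNH and P-CNH and NSB replicates 1 and 2, whereas NSB replicate 3 was run in batch 3. NSB replicate 3 is the sole array that ties batch 1 to the others, with a leverage of 1. Comparisons of batch 1 regions with regions of batches 2 and 3 therefore rest on that array, and they could not be fitted without it. The E10.5 CNH against NSB difference has the same value with batch 1 alone. All p-values are from limma and are adjusted by Benjamini-Hochberg over all 21712 probes; a call needs an adjusted p of at most 0.05 and, between regions, a fold change of at least 1.5. They measure the spread between pools, part of which may be technical. Where a group was detected on no array, its fold is a bound ("at least") from measured means, with each undetected array set to the lowest level detected on it if that was higher. These bounds carry no batch adjustment. Among differences that were not called, a group was at background for Itga6 (P, E9.5 and E13.5 CNH), Itgav (A, RN, CLE and E13.5 CNH), Lamb1-1 (P, E9.5 and E13.5 CNH), Lamb3 (CLE and E10.5 CNH), Lama3 (E10.5 CNH) and Lama2 (PP), so these values are no measure of size.

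Markers of the tissues followed the region labels. Wnt3a, expressed in caudal epiblast, was detected on 33 arrays and read 4.94, 5.08 and 5.10 in A against 12.13 and 12.18 in P. Noto, a node and notochord gene, read 8.06 and 8.49 in RN and 8.88, 9.38 and 8.38 in NSB, but 4.44, 4.63 and 4.59 in CLE. Tbx4, a gene of the posterior streak and allantois, read 11.68 and 12.13 in St5, and its highest value elsewhere was 7.42 in RN replicate 1. In the tail bud Shh, secreted by the notochord, was lower in P-CNH than in CNH (fitted log2 difference -5.13 ± 0.33 SE, adjusted p = 2.51e-09). Only 1 of 6 P-CNH arrays detected Shh, so this value is no measure of size. Sox17, an endoderm gene, was detected on 0 of the 3 CLE arrays and on all other arrays of E7.5 and E8.5. Sox1 and Pax6 were not kept, so Sox2 alone stands for neural tissue.

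The F test over the 16 regions, limma's test for any difference in level, called 5 of 5 notochord and node genes, 2 of 2 anterior neurectoderm genes, 3 of 3 caudal epiblast genes, 3 of 3 paraxial mesoderm genes, 3 of 3 posterior streak genes, 4 of 4 definitive endoderm genes and 7 of 7 visceral endoderm genes. It also called 3 of 3 parietal endoderm genes, 6 of 6 red blood cell genes, 1 of 1 megakaryocyte gene, 4 of 4 leukocyte genes, 4 of 4 endothelial genes and 4 of 5 surface ectoderm genes. Sox2 was not called by limma (adjusted p = 0.0651, unadjusted p = 0.0248). Msgn1, Foxf1 and Pf4 of these lists have no probe on the array, and Srgn, Gp9, Gp1bb, Ptprc and Kdr were not kept.

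Most subunits varied across the 16 regions. The F test called 21 of 29 member genes, beside 35.6% of all tested probes. Calls were made for 8 of 9 laminin chains, 7 of 12 integrin α subunits and 4 of 5 integrin β subunits, so for 19 of 26 subunits, and for 2 of the 3 genes that are not subunits. The 8 genes not called were Itga2, Itga2b, Itga8, Itgae, Itgav, Itgb1bp1, Itgb6 and Lamb1-1. A gene seen in few regions could pass the detection filter through the region where it was high, so these counts describe the members and are no measure of how they differ from other genes. Values of single arrays are as measured, whereas fitted levels of regions are adjusted to batch 1, for which batches 2 and 3 rest on NSB replicate 3. A fitted level can therefore lie outside all measured values, and the order of regions is given for both.

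**Figure D1:**
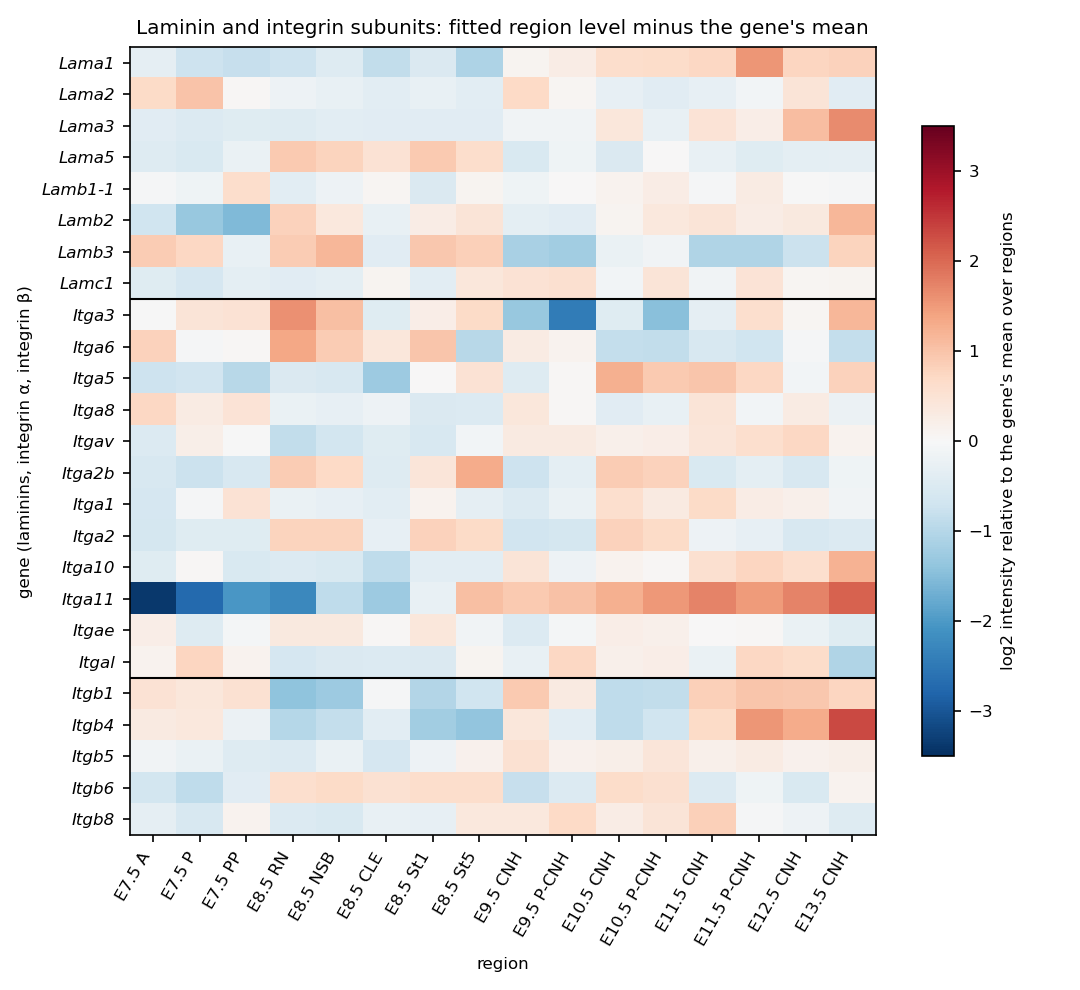
Heat map of laminin and integrin subunit genes (lead probes, grouped by role) over the 16 regions, with colour for the fitted, batch-adjusted region level on the log2 scale minus the gene's mean over regions. Itga11 is lowest in A and highest in the E13.5 CNH (measured means 4.64 and 10.12), and Lama1 is lowest in St5 and highest in the E11.5 P-CNH.

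Among the laminin α chains, Lama1, the chain of the early embryonic basement membrane, was detected on all 36 arrays (F test adjusted p = 3.6e-06). Its measured region means ran from 8.85 in St5 to 11.72 in the E11.5 P-CNH, the ends of the fitted order too, and every CNH and P-CNH array read at least 10.28. Lama5, the chain that becomes widespread in later epithelia, was also detected on all 36 arrays (adjusted p = 0.00473), with measured region means from 7.55 in the E10.5 CNH to 9.99 in CLE. Its fitted levels ran from 7.51 in the E9.5 CNH to 8.97 in St1, so both ends depend on the adjustment. Both α chains were thus measured throughout, but the regions where they were lowest differed. Lama3, the α chain of epithelial anchoring laminin, was detected on 3 arrays, all of the E12.5 and E13.5 CNH (adjusted p = 2.2e-05). Lama2, a chain of muscle basement membrane, was detected on 2 arrays, P replicate 2 (5.945) and RN replicate 2 (5.567). It had its highest mean in P (6.14 measured and 6.64 fitted, F test adjusted p = 0.0256). The fitted level is above every measured value, and the highest reading, 6.34 on P replicate 1, was undetected.

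The β and γ chains held 1 member near the top of the intensity range and several at its floor. Lamc1, the γ chain shared by most laminins, was detected on all 36 arrays and was lowest in P (10.25 measured, 10.48 fitted) and highest in the E10.5 P-CNH as measured (11.52) and the E9.5 P-CNH as fitted (11.64; adjusted p = 0.00209); the F test did not call its other kept probe (adjusted p = 0.679). Lamb2, the β chain of laminins at mature basement membranes, was highest in the E13.5 CNH (9.75 measured, 7.90 fitted; adjusted p = 6.64e-05). Its lowest measured mean was in the E10.5 CNH (6.82) and its lowest fitted level in PP (5.18), which is under every measured value. Lamb3, the β partner of Lama3 in epithelial anchoring laminin, was detected on 14 arrays, at E7.5, in the E8.5 regions other than CLE and on 1 array of the E13.5 CNH (adjusted p = 1.44e-06).

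Lamb1-1, the main β chain of early basement membranes, separated by batch. It read 7.05 to 8.01 in batch 1 with a median of 7.68, and was detected on 12 of 12 arrays. In batch 2 it read 4.61 to 5.74 with a median of 4.88 and was detected on 0 of 12 arrays, and in batch 3 it read 6.06 to 7.24 with a median of 6.60 and was detected on 10 of 12. All arrays of batch 2 lie below those of the other batches, while the ranges of batches 1 and 3 overlap. Regions run in both batches 2 and 3 were split in the same direction, least in CLE (5.74 in batch 2 against 6.53 and 6.06 in batch 3). In A it read 4.81 and 4.61 in batch 2 and 6.98 in batch 3, and in the E11.5 CNH 4.75 and 4.95 against 6.71. The E9.5 P-CNH read 5.05 and 6.51, the E12.5 CNH 4.96 and 6.53, and the E13.5 CNH 4.81 and 6.68. With the batch term the F test gave an adjusted p of 0.552, and without it 0.00205. Its level thus differed by batch inside the same region, and with the batch term no difference between regions was called.

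**Figure D2:**
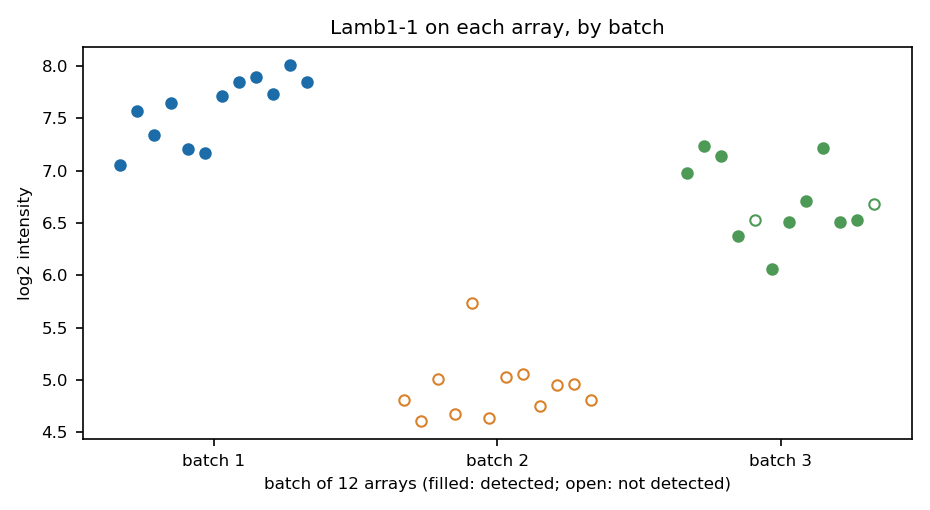
Lamb1-1 on each array (points, log2 intensity) by batch, with filled points where the probe was detected. The 12 arrays of batch 1 lie between 7.05 and 8.01, above all arrays of batch 2.

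Itga11, the α subunit of a collagen receptor of mesenchymal cells, had the widest range of the integrins named here. It was detected on 29 arrays (F test adjusted p = 2.69e-11). It read 4.57, 4.65 and 4.69 in A, 5.11 and 5.20 in P, and 6.07 and 6.38 in PP. At E8.5 it read 5.15 and 5.81 in RN, 6.86, 6.85 and 7.38 in NSB, 5.78, 7.65 and 7.13 in CLE, 7.49 and 7.47 in St1, and 8.66 and 8.93 in St5. At E8.5 the lowest values were thus in the node and on CLE replicate 1, and the highest in the posterior streak. From E9.5 it read 8.68 and 8.86 in the CNH and 8.99 and 9.19 in the P-CNH, and at E10.5 it read 8.64 and 9.32 in the CNH and 9.12 and 9.41 in the P-CNH. Later CNH arrays read 9.88, 9.57 and 9.76 at E11.5, 10.00 and 9.62 at E12.5, and 9.78 and 10.47 at E13.5. All CNH arrays lay above all NSB and CLE arrays of E8.5.

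The laminin receptor subunits Itga3 and Itga6 were highest in the node, as measured and as fitted. Itga6, the α subunit of hemidesmosomal and laminin-binding integrins, had its highest mean in RN (9.20) and its lowest in the E13.5 CNH as measured (5.19) and St5 as fitted (6.86; adjusted p = 0.00239). It was detected on 12 of 12 arrays in batch 1, 1 of 12 in batch 2 and 10 of 12 in batch 3, with medians of 7.89, 5.60 and 6.63, so its measured level also differed by batch. The F test did not call the other kept Itga6 probes (adjusted p = 0.148 and 0.107). Itga3, which binds epithelial laminins, had its highest in RN (9.69) and its lowest in the E9.5 P-CNH (5.94 measured, 5.64 fitted; 35 arrays, adjusted p = 1.42e-05). Itga5, the α subunit of the fibronectin receptor, had measured means from 7.09 in RN to 10.08 in the E11.5 P-CNH and fitted levels from 6.32 in CLE to 8.84 in the E10.5 CNH (35 arrays, adjusted p = 0.00131). Its other kept probe was not called by the F test (adjusted p = 0.159). The F test also called Itga1 and Itga10, subunits of collagen receptors, detected on 5 and 15 arrays (adjusted p = 0.0185 and 0.0206), and Itgal, a leukocyte subunit detected on 15 arrays (adjusted p = 0.0414). Without the batch term the adjusted p for Itga1 was 0.113, so its call rests on that term.

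Itgav, the α subunit of vitronectin receptors, was detected on 19 arrays and missed the threshold (adjusted p = 0.0516; 0.042 without the batch term). It was highest in the E12.5 CNH (6.63 measured, 7.05 fitted) and lowest in A as measured (5.40) and RN as fitted (5.47). Itga2, a collagen receptor subunit, was detected on 1 array (E11.5 CNH replicate 1), Itga2b, the platelet subunit, on 2 arrays, Itga8 on 2 arrays and Itgae, a subunit of intraepithelial lymphocytes, on 3 arrays. These 4 genes were therefore at or under the detection limit in most regions.

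Among the β subunits, Itgb1, the partner of Itga3, Itga5, Itga6 and Itga11, was detected on 32 arrays with its highest mean in the E11.5 P-CNH (7.49 measured, 8.29 fitted) and its lowest in NSB as measured (5.79) and RN as fitted (5.92) (adjusted p = 0.00115). The F test did not call its other kept probe, detected on 13 arrays (adjusted p = 0.362). That probe had its highest measured mean in St5 and its lowest in PP. Itgb5, a partner of Itgav, was detected on all 36 arrays at 8.87 to 11.38 (adjusted p = 0.0178; 0.143 without the batch term). Itgb4, the hemidesmosome partner of Itga6, was detected on 25 arrays and had its highest mean in the E13.5 CNH (8.18 measured, 9.41 fitted; adjusted p = 0.000442). Itgb8, which pairs with Itgav, was detected on 7 arrays with its highest mean in the E11.5 CNH (6.00 measured, 6.18 fitted; adjusted p = 0.00356). Its other kept probe was not called by the F test (adjusted p = 0.0814). Itgb6 was detected on 1 array, CLE replicate 1 (7.20).

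Of the 3 genes that are not subunits, Itgb3bp, a centromere protein gene, was detected on all 36 arrays at 8.79 to 11.26 (adjusted p = 0.0164). Itgb4bp, a ribosome assembly factor, was detected on 24 arrays with its highest mean in A (6.53 measured; 8.20 fitted, above every measured value) and its lowest in the E13.5 CNH as measured (5.12) and the E10.5 P-CNH as fitted (5.82; adjusted p = 0.00556). Without the batch term the calls for both were lost (adjusted p = 0.0567 and 0.191). Itgb1bp1, which encodes a protein that binds the tail of the Itgb1 product, was detected on all 36 arrays at 8.90 to 10.31 and was not called (adjusted p = 0.0874; 0.025 without the batch term).

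**Figure D3:**
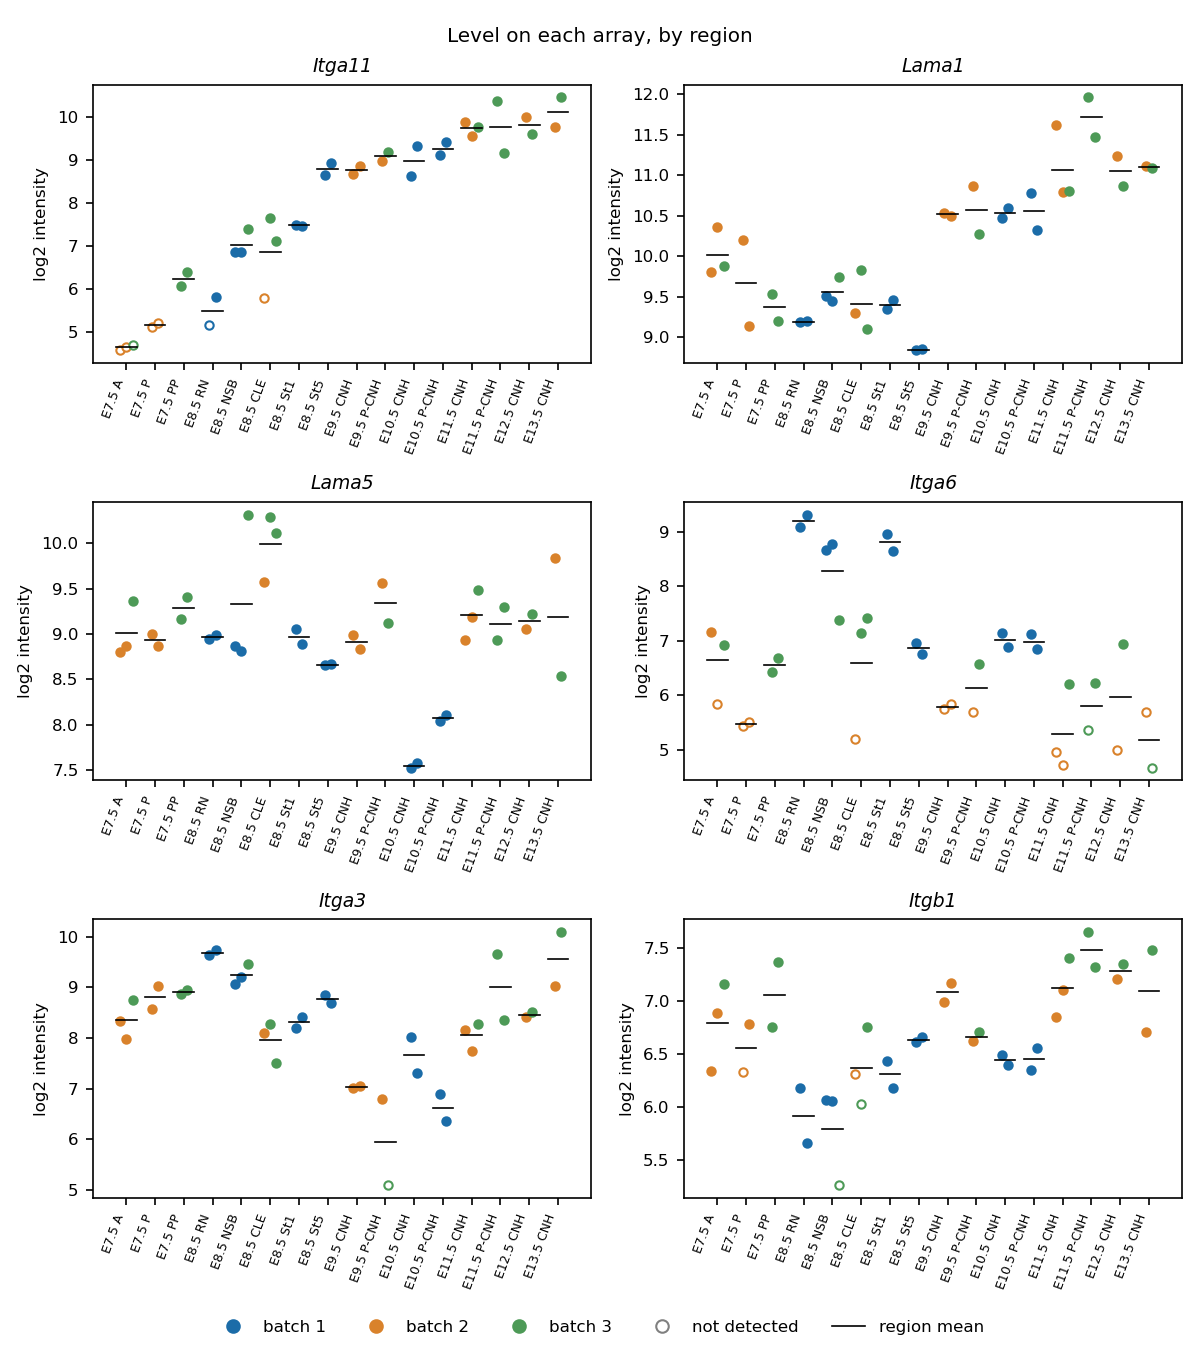
Log2 intensity of Itga11, Lama1, Lama5, Itga6, Itga3 and Itgb1 on each of the 36 arrays (points; filled where detected) by region, coloured by batch, with the region mean as a line. Itga11 reads 4.57 to 4.69 in A and 9.78 and 10.47 in the E13.5 CNH.

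Promoter sequences were shown for the members that passed the test between the E10.5 CNH and NSB, 3 of them higher and 3 lower. All 29 member genes matched a current symbol, and 20 had an entry among the 32851 RefSeq promoters (build GRCm38.p6; 250 bases before to 50 after the start). No entry was found for the called genes Itga6 and Lama1, nor for Itgae, Itgal, Itgb4, Itgb4bp, Lama3 and Lamc1 among others, so 4 of the 6 called genes are printed. The lookup of members left out the entries of 1 chromosome, so a gene without a promoter here may still have an entry. Capitals mark GGGCGG and CANNTG, each searched on both strands, so that CCGCCC marks the former on the opposite strand. The Itga11 promoter (chr9:62677605-62677904, plus strand) holds 0 matches of GGGCGG and 1 of CANNTG. That of Itga5 (chr15:103366742-103367041, minus strand) holds 2 of each, and that of Lama5 (chr2:180225810-180226109, minus strand) holds 4 and 2. The first Lamb3 entry (chr1:193301744-193302043, plus strand) holds 0 and 3.
Itga11: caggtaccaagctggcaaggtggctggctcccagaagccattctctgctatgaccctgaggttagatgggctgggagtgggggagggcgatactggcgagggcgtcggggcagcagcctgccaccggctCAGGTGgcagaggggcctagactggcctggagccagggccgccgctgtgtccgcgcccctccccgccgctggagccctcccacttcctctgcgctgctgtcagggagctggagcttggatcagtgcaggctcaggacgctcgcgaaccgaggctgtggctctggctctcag
Itga5: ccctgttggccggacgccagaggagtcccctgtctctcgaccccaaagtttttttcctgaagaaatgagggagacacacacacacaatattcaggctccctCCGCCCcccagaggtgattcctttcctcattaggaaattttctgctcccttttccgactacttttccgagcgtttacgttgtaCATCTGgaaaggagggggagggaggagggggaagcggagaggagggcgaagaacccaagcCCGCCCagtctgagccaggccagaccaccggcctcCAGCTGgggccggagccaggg
Lama5: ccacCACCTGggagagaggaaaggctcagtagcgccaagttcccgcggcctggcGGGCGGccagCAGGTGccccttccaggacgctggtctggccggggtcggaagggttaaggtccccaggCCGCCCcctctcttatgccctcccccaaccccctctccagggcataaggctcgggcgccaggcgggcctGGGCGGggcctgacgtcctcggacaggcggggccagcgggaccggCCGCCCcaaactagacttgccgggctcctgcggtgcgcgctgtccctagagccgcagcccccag
Lamb3: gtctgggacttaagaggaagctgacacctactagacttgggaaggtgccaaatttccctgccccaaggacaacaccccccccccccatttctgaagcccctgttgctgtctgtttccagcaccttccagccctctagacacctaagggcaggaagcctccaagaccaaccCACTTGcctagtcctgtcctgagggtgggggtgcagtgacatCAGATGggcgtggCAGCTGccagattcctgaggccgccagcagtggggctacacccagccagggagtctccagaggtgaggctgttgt

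The search covered 11 motifs on both strands. GGGCGG was in 35.7% of all promoters of this length and CANNTG in 72.3%. CACCTG, which is a form of CANNTG, was in 20.2%, and TGANTCA was in 7.81%. TGACTCA is a form of TGANTCA and was in 5.2%; GTGACTCA, which contains it, was in 1.63%. The others were GTCTAGAC (0.213%), CAGACA (21.0%), TATAAA (13.6%), CTTTGA (16%) and CCAAT (37.4%). A match is a string of letters in this window and nothing more.

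At E7.5 the anterior and posterior regions were compared to separate neural-fated from streak-bearing tissue. No member gene was called by limma between P and A, where 1 of 29 (3.45%) had an unadjusted p under 0.05, as had 10.8% of all tested probes. Of all tested probes 1.52% were called higher and 1.21% lower; these shares count probes. The median log2 difference over the 29 genes was -0.10, beside -0.04 over all tested probes. The lowest p belonged to Itgb1bp1 (-0.62, adjusted p = 0.145). The laminin receptor subunit Itga6 differed by -0.83 (adjusted p = 0.595), Itga3 by 0.47 (0.86), Itgb1 by -0.12 (0.985), Itgav by 0.69 (0.546), Lamc1 by -0.16 (0.962) and Lamb1-1 by -0.10 (0.99). Within batch 2, which holds 2 arrays of each region, limma also called 0 members, with Itga6 at -1.02 (adjusted p = 0.387). The regions themselves were well separated, with 3 of 3 caudal epiblast genes higher in P and 2 of 2 anterior neurectoderm genes lower. Paraxial mesoderm genes were higher for 2 of 3 and visceral endoderm genes for 1 of 7, and of 5 notochord and node genes T was higher and Shh lower.

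The same held for the proximal posterior region. Between PP and P limma called 0 of 29 members, 2 (6.9%) had an unadjusted p under 0.05, as had 2276 of all 21712 tested probes, and 0.391% of all tested probes were called higher and 0.401% lower. The medians were 0.05 over the members and 0.01 over all tested probes. The lowest p values were those of Lamb3 (-0.98, adjusted p = 0.29) and Lama2 (-0.96, adjusted p = 0.292). Lamc1 differed by 0.25 (0.824), Itgb1 by 0.16 (0.91), Itga6 by 0.08 (0.977), Itga3 by 0.04 (0.986), Itgav by -0.21 (0.919) and Lamb1-1 by 0.76 (0.477). Of all calls here 49.4% were higher in PP, and 70.6% with cyclic loess in place of quantile normalisation. Of the markers, Otx2, Meox1 and Tcf15 were lower in PP, and Hand1, Afp and Rbp4 higher.

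At E8.5 each region was compared with the mean of the other 4 to find what marks the node, the epiblast and the streak; the 5 comparisons share their samples. In the posterior streak limma called Itga11 4.69-fold higher (log2 difference 2.23 ± 0.35 SE, n = 2 against 10 arrays, adjusted p = 0.000138). Both St5 arrays, at 8.66 and 8.93, lay above all 10 others, the highest of which read 7.65. Over its alternatives the Itga11 difference ran from 1.51 to 2.37. Its other kept probe was also higher (1.5, adjusted p = 0.00262). Itga6 was 3.68-fold lower in St5 (-1.88 ± 0.44 SE, adjusted p = 0.00886). Its 2 other kept probes had smaller differences: 1 was not called (-0.58, adjusted p = 0.713), and the other, called lower (-0.78, adjusted p = 0.0408), was detected on 0 of 2 St5 arrays and 2 of the 10 others. On the single arrays Itga6 read 6.97 and 6.76 in St5, 9.09 and 9.31 in RN, 8.66, 8.78 and 7.39 in NSB, 5.20, 7.15 and 7.41 in CLE, and 8.96 and 8.65 in St1. The midline regions RN, NSB and St1 were thus above St5, while the CLE arrays overlapped it. Within batch 1, where CLE is absent, Itga6 differed by -2.04 ± 0.13 SE (adjusted p = 5.06e-07). The call was lost without St5 replicate 1 (-1.98, adjusted p = 0.0747), without St5 replicate 2 (-1.78, adjusted p = 0.152) and without the batch term (-1.35, adjusted p = 0.174); over all its alternatives the adjusted p ran from 5.06e-07 to 0.174.

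In all, 2 of 29 members were called in St5, 1 in each direction, beside 2.73% of all tested probes higher and 2.74% lower. The medians were 0.16 over the members and 0.00 over all tested probes (-0.002). Counts under alternatives, here and below, are given without the share of all tested probes. They do not show how members differ from other genes. Leaving out either St5 array left 1 call, that of Itga11. Within batch 1 alone 6 members were called: Itga11 (2.19, adjusted p = 8.41e-06), Itga6, Itga5 (0.87, 4.59e-05), Lamc1 (0.78, 0.000274), and Itgb8 (0.00125) and Itga2b (0.0147), which were each detected on 1 St5 array and on no RN, NSB or St1 array. Over all arrays Lamc1 differed by 0.66 (adjusted p = 0.11), Itgav by 0.52 (0.794), Lamb1-1 by 0.34 (0.981), Itgb1 by 0.24 (1) and Itga3 by 0.07 (1). Cyclic loess gave 4 calls in St5, as did the BeadChip as a random effect and leaving out the 4 arrays with the fewest detected probes.

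Among the basement membrane partners, 2 of 10 were called higher in St5, and the median over the 10 was 0.25. They were Hspg2, the perlecan gene (1.29, adjusted p = 0.021), and Nid1, which links laminin to collagen sheets (1.60, adjusted p = 0.0466). Vtn, the vitronectin gene and 1 of 6 other integrin ligands measured, was detected on 0 of 2 St5 arrays and was at least 5.04-fold lower there (adjusted p = 8.13e-06). Markers of other cell types moved with these genes. In St5, 3 of 4 measured endothelial genes were higher (Cdh5, Tek and Esam), and the log2 of the summed endothelial level was 10.20 and 10.47, against 8.29 and 8.44 in RN, 8.36, 8.28 and 8.44 in NSB, 8.37, 8.89 and 7.88 in CLE, and 8.36 and 8.28 in St1. Esam was the most abundant of them, and Kdr, which was not kept, is included in the sum. Of the posterior streak genes 3 of 3 were higher, led by Tbx4 (5.37). Sox2, for neural tissue, was undetected in St5 and at least 2.96-fold lower (adjusted p = 0.00237). Lower too were 2 of 5 notochord and node genes (Chrd and Noto), 1 of 3 caudal epiblast genes (Nkx1-2) and 1 of 3 paraxial mesoderm genes (Meox1). Of 4 definitive endoderm genes 2 were higher (Ctsh and Sox17) and 1 lower (Trh), and of 4 leukocyte genes Laptm5 was higher. The summed surface ectoderm level in St5, 7.94 and 7.79, lay within the range of the other E8.5 arrays (7.24 to 8.34). The part of these cells in the result was not tested.

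In the rostral node Itga11 was lower. The RN arrays read 5.15, which was not detected, and 5.81, and 9 of the 10 other E8.5 arrays lay above both, the exception being CLE replicate 1 at 5.78. Itga11 was lower in RN (-1.92 ± 0.35 SE, adjusted p = 0.00147), with 1 of the 2 arrays at background, and differed by -2.23 ± 0.20 SE within batch 1 (adjusted p = 1.94e-05). Without RN replicate 1 the call was lost (-1.59, adjusted p = 0.119) and the count for RN was 0; over its alternatives the difference ran from -2.25 to -1.03 and the adjusted p from 3.48e-06 to 0.119. Its other probe, detected on 0 of 2 RN arrays, differed by -0.58 and was not called (adjusted p = 1). This was the 1 call among 29 members, beside 1.88% of all tested probes higher and 0.368% lower, with medians of -0.01 over the members and -0.03 over all tested probes.

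The laminin receptor subunits were not called in RN over all arrays, with Itga3 at 1.22 ± 0.40 SE (adjusted p = 0.192), Itga6 at 1.04 ± 0.44 SE (0.565) and Itgb1 at -0.66 (0.326). Itgav differed by -0.42, Lamc1 by -0.34 and Lamb1-1 by -0.25 (adjusted p = 1 for each). Within batch 1, RN counted 3 calls: Itga11, Itga3 (0.95, adjusted p = 0.00479) and Itga6 (1.07, adjusted p = 0.000195). An offset of 100, or the BeadChip as a random or a fixed effect, gave 2 calls in RN, and leaving out the 4 arrays with the fewest detected probes gave 3. Notochord and node genes were called in RN for 4 of 5 (Shh, Foxa2, Noto and Chrd, all higher), and Vtn, a ligand of Itgav integrins, was higher with them (3.82, adjusted p = 6.71e-07). Fermt1, an activator of integrin β tails, was also higher in RN (1.25, adjusted p = 0.0309). Meox1, Tcf15 and Otx2 were higher as well, and Tbx6, Fgf8 and Wnt3a lower. Red blood cell genes were higher for 3 of 6, with summed levels of 13.15 and 12.14 in RN, 11.94, 10.77 and 10.21 in NSB, 9.97, 8.07 and 7.60 in CLE, 12.28 and 10.17 in St1 and 11.46 and 9.83 in St5; Hbb-y was the most abundant gene over all arrays, and their part was not tested.

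At the node-streak border limma called 0 of 29 members, 3 (10.3%) had an unadjusted p under 0.05, as had 5.64% of all tested probes, and 1.94% of all tested probes were called higher and 0.244% lower. The medians were 0.04 over the members and -0.03 over all tested probes. Lamb3 differed by 0.58 (adjusted p = 0.367), Itgb1 by -0.47 (0.464), Itga3 by 0.53 (1) and Itga6 by 0.44 (1). Lamc1 differed by -0.28, Itgav by -0.15 and Lamb1-1 by -0.01 (adjusted p = 1 for each). The same 4 notochord and node genes as in RN were higher here, and so were Vtn (3.57, adjusted p = 1.67e-08) and Fermt1 (1.22, adjusted p = 0.00311). Sox17, Trh and Meox1 were higher too, and 3 of 3 posterior streak genes lower.

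In the CLE, where NMPs lie in epiblast dissected without endoderm, limma called 0 of 29 members. Of the members 6 (20.7%) had an unadjusted p under 0.05, as had 6.15% of all tested probes, and 0.101% of all tested probes were called higher and 0.912% lower. The medians were -0.15 over the members and 0.01 over all tested probes. Lamb3, undetected on all 3 CLE arrays, had the lowest p (adjusted p = 0.209). Itgb1 differed by 1.06 (adjusted p = 0.315), Itga3 by -1.32 (0.748), Itga6 by -0.15 (1), Lamc1 by 0.28 (1), Itgav by 0.10 (1) and Lamb1-1 by 0.31 (1). No array of CLE was in batch 1, so each of these values rests on NSB replicate 3. Without the batch term 5 members were called, and 3 without the 4 arrays with the fewest detected probes, which include CLE replicates 1 and 2. Vtn was detected on 0 of 3 CLE arrays and was at least 3.64-fold lower there (adjusted p = 0.000109). Lower too, and undetected in CLE, were 2 of 4 endoderm genes (Sox17 and Ctsh), 2 of 5 notochord and node genes (Shh and Foxa2), Tbx4, Hbb-bh1 and Ttr. Of all calls in CLE 10.0% were higher, and 0% with cyclic loess.

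In the anterior streak, St1, limma called 0 of 29 members and 0 had an unadjusted p under 0.05, against 3.97% of all tested probes. Of all tested probes 0.0921% were called higher and 0.359% lower; the medians were 0.03 over the members and 0.01 over all tested probes. Itga11 had the smallest p (0.59, adjusted p = 1), and Itga3 and Itga6 differed by -0.50 and 0.55 (adjusted p = 1 for both). Lamb1-1 differed by -0.39, Lamc1 by -0.32, Itgb1 by -0.17 and Itgav by -0.06 (adjusted p = 1 for each). The markers Wnt3a, Sox17 and Tbx6 were higher. Within batch 1 alone 1 member was called, Itga3 (-0.88, adjusted p = 0.009).

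The posterior streak was followed over time by comparing St5 with the E7.5 PP, both of which hold progenitors of lateral mesoderm. Itga11 read 6.07 and 6.38 in PP and 8.66 and 8.93 in St5, so the later arrays were higher without overlap. It rose 8.57-fold with the batch term (3.10 ± 0.63 SE, n = 2 against 2, adjusted p = 0.0132), and its other probe, not detected in PP, rose at least 1.82-fold (adjusted p = 0.0395). PP was in batch 3 and St5 in batch 1. The Itga11 call was lost, and the count became 0, without PP replicate 1 (2.95, adjusted p = 0.0604), NSB replicate 1 (3.10, 0.0559), NSB replicate 2 (3.10, 0.052) or St5 replicate 2 (2.96, 0.0715). The measured means were 8.80 and 6.23. Over its alternatives the difference ran from 2.06 to 3.28 and the adjusted p from 5.98e-05 to 0.0715.

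This was 1 call among 29, beside 0.474% of all tested probes higher and 0.553% lower, with medians of 0.05 over the members and -0.06 over all tested probes. Lamb2, a laminin β chain, stood next (2.00 with the batch term, adjusted p = 0.0714), but its measured means were 7.17 in St5 and 7.09 in PP and the groups overlap. Itgb1 differed by -1.23 (0.211), Lamc1 by 0.75 (0.493), Itga6 by -1.02 (0.673), Lamb1-1 by -0.53 (0.75), Itga3 by 0.19 (0.955) and Itgav by -0.10 (0.973). The count was 2 without CLE replicate 1 or CLE replicate 2, without E11.5 P-CNH replicate 1 or 2, where Lamb2 was added, and without E13.5 CNH replicate 1 or 2, where Itga2b was added. It was 5 without the 4 arrays with the fewest detected probes. Tbx4 was higher in St5, and visceral endoderm genes moved with the comparison: 2 of 7 were lower in St5, Ttr was the most abundant over all arrays, and the summed level was 15.20 and 14.13 in PP and 11.02 and 11.08 in St5. Their part in the result was not tested.

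The passage of NMP-bearing tissue from streak to tail bud was followed from NSB to the E10.5 CNH, where 6 of 29 members were called, 3 higher and 3 lower, beside 3.54% of all tested probes higher and 3.6% lower. Integrin subunits for collagen and fibronectin and the early laminin α chain were higher at E10.5, whereas a laminin receptor subunit and 2 laminin chains of epithelia were lower. The medians were 0.19 over the members and -0.01 over all tested probes. NSB replicates 1 and 2 and both E10.5 arrays were in batch 1.

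Itga11, the collagen receptor subunit, read 6.86, 6.85 and 7.38 in NSB and 8.64 and 9.32 in the E10.5 CNH. All E10.5 arrays were higher, by 4.38-fold with the batch term (2.13 ± 0.40 SE, adjusted p = 0.000781), and the other probe, undetected in NSB, was at least 1.51-fold higher (adjusted p = 0.00898). Lama1, the early laminin α chain, read 9.51, 9.45 and 9.75 in NSB and 10.47 and 10.60 at E10.5. The groups do not overlap, and the rise was 2.08-fold (1.06 ± 0.32 SE, adjusted p = 0.0479). Itga5, the fibronectin receptor subunit, read 7.12, 6.96 and 8.80 in NSB and 8.92 and 8.75 at E10.5. NSB replicate 3 of batch 3 overlapped the E10.5 arrays, while NSB replicates 1 and 2 lay below them; the rise was 3.48-fold (1.80 ± 0.50 SE, adjusted p = 0.0251), and its other kept probe was not called (1.44 ± 0.69 SE, adjusted p = 0.339).

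Lama5, the laminin α chain of later epithelia, read 8.86, 8.81 and 10.32 in NSB and 7.52 and 7.57 at E10.5. Both E10.5 arrays were lower than all NSB arrays, by 2.45-fold (-1.29 ± 0.31 SE, adjusted p = 0.00898). Itga6, the laminin receptor subunit, read 8.66, 8.78 and 7.39 in NSB and 7.14 and 6.88 at E10.5. It was 3.27-fold lower (-1.71 ± 0.50 SE, adjusted p = 0.0388), without overlap, although NSB replicate 3 lay close to the E10.5 arrays. Neither of its 2 other kept probes was called (-0.65, adjusted p = 0.57, and -0.70, adjusted p = 0.123). The latter probe was undetected at E10.5, so its value is no measure of size. Lamb3, a chain of epithelial anchoring laminin, read 6.08, 5.90 and 7.29 in NSB and was undetected at E10.5, at 4.63 and 4.57. Limma called it lower (adjusted p = 0.00579). In measured means it was at least 1.75-fold lower, but the NSB mean includes replicate 3 (7.29), which was in batch 3. The fitted fall of 1.39 on the log2 scale (± 0.32 SE) is against background readings, so it is no measure of size.

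**Figure D4:**
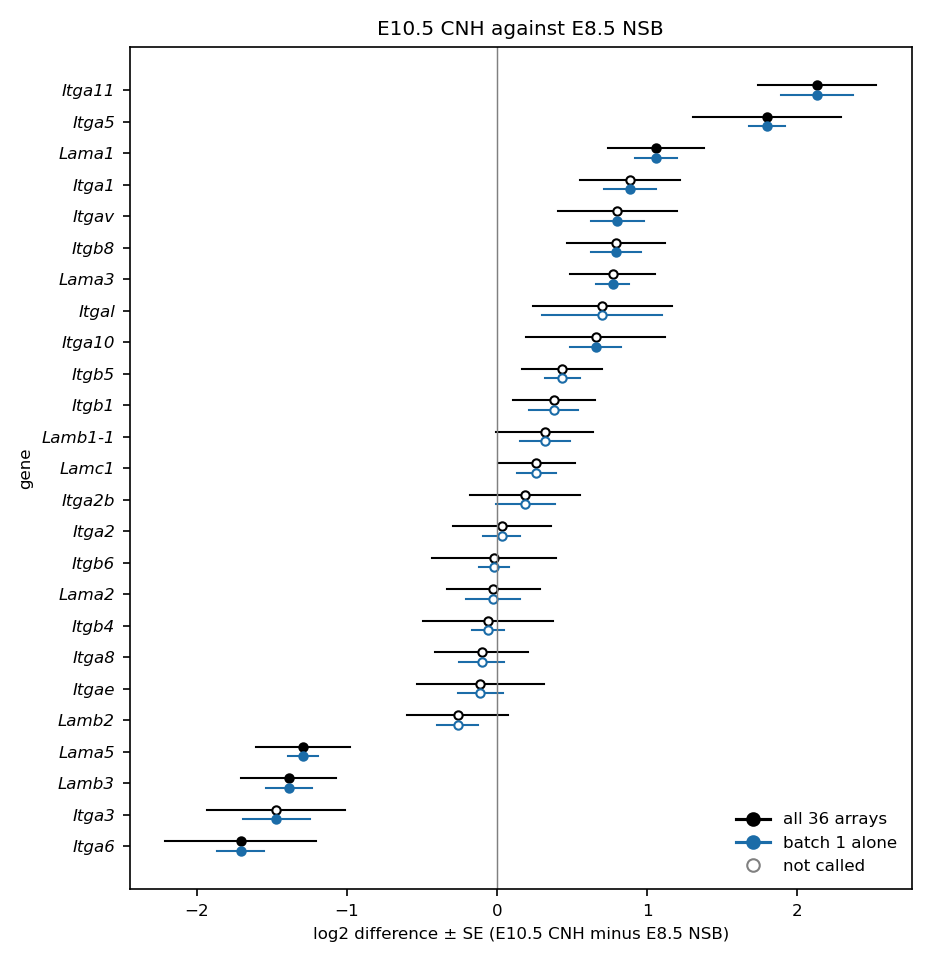
Log2 difference between the E10.5 CNH and NSB for laminin and integrin subunit genes, with all arrays and with batch 1 alone (points with SE bars; filled where called). Lama3 and Itga2 are among genes undetected in both groups. The 2 fits share their estimates and differ in their errors, with Itga11 at 2.13 and Lama5 at -1.29.

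The share of all tested probes called within batch 1 is not given, so a count there does not show how members differ from other genes. Within batch 1, where the spread between replicates was smaller, 12 members were called in this comparison. They were the 6 above (adjusted p = 5.09e-05 for Itga11, 0.000163 for Lama1, 6.88e-07 for Itga5, 2.68e-06 for Lama5, 1.03e-05 for Itga6 and 3.92e-05 for Lamb3) and 6 more. Of these, Itga3 was lower (-1.47 ± 0.22 SE, adjusted p = 0.000444; 0.0564 over all arrays). Itgav was higher (0.80), as were Itga1, Itga10 and Itgb8, which were undetected in NSB and for which the bound gives no fold. Lama3 was also called but was undetected in both groups, so its call is between background readings. Over all arrays Itgav differed by 0.80 (adjusted p = 0.364), Itgb1 by 0.38 (0.714), Lamc1 by 0.26 (0.916) and Lamb1-1 by 0.32 (0.933).

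The calls over all arrays depended on single arrays, except that of Itga11, which was kept in 36 of 36 leave-outs. Over the alternatives the difference ran from 1.57 to 2.47 for Itga11 and from 1.21 to 1.88 for Itga5. It ran from -1.84 to -1.25 for Itga6 and from -1.79 to -0.999 for Lama5. For Lamb3, undetected at E10.5, the fitted difference ran from -1.82 to -0.45. The count was 1 (Itga11) without NSB replicate 1 or E10.5 CNH replicate 2, and 2 (Itga11 and Lamb3) without NSB replicate 2 or E10.5 CNH replicate 1. Lama1 lost its call in 23 of 36 leave-outs (adjusted p 0.0213 to 0.273 over all 36), without the batch term (0.0556) and without the detection filter (0.0751), against 0.000163 within batch 1. Itga5 lost it without NSB replicate 1 (adjusted p = 0.116) or 2 (0.177), without E10.5 CNH replicate 1 (0.179) or 2 (0.114), without the batch term (0.425), without the detection filter (0.0567) and with the BeadChip as a random effect (0.0657), with 4.3e-07 the lowest over its alternatives. Itga6 lost it without the same arrays (0.169, 0.219, 0.136 and 0.254), without the batch term (0.31), without the detection filter (0.0855) with the BeadChip as a random effect (0.0836) and with replicate number as a block (0.0509), with 9.84e-06 the lowest. Lama5 lost it without them too (0.0795, 0.0637, 0.0799 and 0.0638; lowest over its alternatives 2.68e-06). Lamb3 lost it without NSB replicate 1 (0.0764), without E10.5 CNH replicate 2 (0.0593) and with an offset of 100 (-0.45, adjusted p = 0.0621; lowest over its alternatives 9.5e-06). The batch 1 and cyclic loess counts were 12 and 11, and without the detection filter the count was 3.

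Other genes of the pathway and other cell types moved in the same comparison. Vtn was lower at E10.5 (-3.15, adjusted p = 2.2e-05). Of 16 adhesion complex genes, Fermt1 was higher (1.35, adjusted p = 0.0181) and Tns3, a tensin gene, lower (-0.85, adjusted p = 0.0234). Of 4 endoderm genes 3 were lower (Sox17, Trh and Cldn6), with summed levels of 13.77, 13.70 and 13.75 in NSB and 10.97 and 10.89 at E10.5, and Cldn6 the most abundant. Red blood cell genes were higher for 3 of 6, with summed levels of 11.94, 10.77 and 10.21 in NSB and 14.84 and 14.93 at E10.5, and Hbb-y the most abundant. Of the endothelial genes 1 of 4 was higher, Cdh5, with summed levels of 8.36, 8.28 and 8.44 in NSB and 9.39 and 9.79 at E10.5. Lower too were 2 of 7 visceral endoderm genes (Amn and Ttr), 1 of 3 parietal endoderm genes (Plat), 1 of 3 posterior streak genes (Tbx4) and 1 of 2 anterior neurectoderm genes (Otx2). Of 3 caudal epiblast genes Fgf8 was higher and Nkx1-2 lower, while 1 of 4 leukocyte genes (Laptm5) and 1 of 3 paraxial mesoderm genes (Tcf15) were higher. The part of these cell types in the integrin and laminin differences was not tested.

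The E9.5 CNH was compared with the same NSB arrays, so this comparison shares them with the one at E10.5; no E9.5 array was in batch 1, and the batch adjustment rests on NSB replicate 3. Here 4 of 29 members were called, 2 higher and 2 lower, beside 2.04% of all tested probes higher and 3% lower. Itga3, the laminin receptor subunit, read 9.07, 9.20 and 9.46 in NSB and 7.02 and 7.05 at E9.5. It was 5.18-fold lower (-2.37 ± 0.61 SE, adjusted p = 0.0229), without overlap. Lamb3 read 4.73 and 4.71 at E9.5, both undetected, against 6.08, 5.90 and 7.29 in NSB. Limma called it lower (adjusted p = 0.0013). In measured means it was at least 1.16-fold lower, but this bound depends on NSB replicate 3 (7.29), which was in batch 3. The fitted fall of 2.29 (± 0.42 SE) is against background readings, so it is no measure of size.

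Itgb1, the common β partner, read 6.07, 6.05 and 5.26 in NSB and 6.99 and 7.17 at E9.5. The E9.5 arrays were higher without overlap, by 4.50-fold with the batch term (2.17 ± 0.37 SE, adjusted p = 0.000517). The batch adjustment rests on NSB replicate 3, on which the probe was not detected, the measured means were 7.08 and 5.79, and the difference ran from 1.05 to 2.36 over its alternatives. The other Itgb1 probe was not called, with a fitted difference in the opposite direction (-0.59 ± 0.35 SE, adjusted p = 0.457). That probe read 5.88, 5.62 and 6.42 in NSB and 5.70 and 5.73 at E9.5. Both E9.5 readings were undetected, so its fitted difference is no measure of size. Itgb4bp read 5.94, 5.89 and 4.65 in NSB and 5.81 and 6.41 at E9.5, so the groups overlap, with NSB replicate 3 the lowest; 2 of 3 and 1 of 2 arrays detected it. It was called higher (2.05 ± 0.45 SE, adjusted p = 0.00684). Just outside the threshold were Itga11 (1.79, adjusted p = 0.0522), Itga2 (-1.46, adjusted p = 0.0537) and Lama5 (-1.33, adjusted p = 0.0678). Lama5 read 8.99 and 8.84 at E9.5, within the range of the NSB arrays (8.86, 8.81 and 10.32). Itga2 was undetected on all arrays of both groups, so no fold is given, although it was called with replicate number as a block and in other alternatives.

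The E9.5 calls depended on the processing, with differences over the alternatives from -2.54 to -0.51 for Itga3 and from 0.56 to 2.35 for Itgb4bp. For Lamb3, undetected at E9.5, the fitted difference ran from -2.47 to -1.02. Itga3 lost its call with the BeadChip as a fixed effect (-0.51, adjusted p = 0.619), without E9.5 CNH replicate 1 (0.0877) and without replicate 2 (0.0813; lowest over its alternatives 0.000729). Itgb1 lost it with cyclic loess (1.13, adjusted p = 0.0766; lowest 0.000139). Lamb3 lost it with cyclic loess (0.0531) and the BeadChip as a fixed effect (0.0597; lowest 0.00011). Itgb4bp lost it with cyclic loess (0.56, adjusted p = 0.495), without the batch term (0.62, 0.413), with the BeadChip as a random effect (1.01, 0.338) and without E9.5 CNH replicate 2 (1.75, 0.068; lowest 0.00201). The count was 2 (Itgb1 and Lamb3) without E9.5 CNH replicate 2, 7 without CLE replicate 1 or either E13.5 array, 11 without the 4 arrays with the fewest detected probes and 1 with cyclic loess.

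The medians were 0.09 over the members and 0.08 over all tested probes. Cyclic loess moved the median of all probes in this comparison by -0.15, and the higher share of all calls from 40.5% to 23.8%. Lamc1 differed by 0.84 (adjusted p = 0.196), Itgav by 0.94 (0.417), Itga6 by -0.60 (0.781) and Lamb1-1 by 0.04 (0.985). Endoderm genes were lower for 3 of 4, with summed levels of 9.73 and 9.65 at E9.5, and red blood cell genes were higher for 3 of 6, with 15.19 and 15.21, against the NSB levels given for E10.5. Vtn was lower (-4.28, adjusted p = 3.01e-05). Meox1, Plat and Otx2 were lower as well, and Laptm5 higher. The part of these cells was not tested, and neither was any difference between the E9.5 and the E10.5 comparison.

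The late CNH was compared with the E10.5 CNH to follow the end of axis elongation. Itgb4, the β subunit of the hemidesmosome, read 6.20 and 6.19 at E10.5, 7.00, 5.58 and 6.84 at E11.5, 7.30 and 7.03 at E12.5 and 7.67 and 8.68 at E13.5. Both E13.5 arrays exceeded both E10.5 arrays. Itgb4 rose 9.29-fold with the batch term (3.22 ± 0.69 SE, n = 2 against 2, adjusted p = 0.0141). The measured means were 8.18 and 6.20, the batch adjustment rests on NSB replicate 3, on which Itgb4 was not detected (5.15), and the difference ran from 1.71 to 3.60 over its alternatives. Its other probe, undetected at E10.5, was not called (2.04 ± 0.56 SE, adjusted p = 0.07). The call was lost with cyclic loess (1.71, adjusted p = 0.138), with replicate number as a block (3.04, 0.0625), without NSB replicate 1 (3.21, 0.0529) and without E13.5 CNH replicate 2 (2.71, 0.0738); over its alternatives the adjusted p ran from 0.00271 to 0.138.

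This was the 1 call among 29 members, beside 1.17% of all tested probes higher and 0.516% lower, with medians of 0.08 over the members and -0.03 over all tested probes. The 2 regions were run in different batches. The count was 0 without NSB replicate 1 or E13.5 CNH replicate 2. It was 2 without CLE replicate 1 or CLE replicate 2, where Itgb1 was added, and without E11.5 CNH replicate 1, where Lama3 was added. Without E13.5 CNH replicate 1 it was 3 (Itga2b, Itgb1 and Itgb4). It was 11 without the batch term, 5 with the BeadChip as a random effect, 3 without the detection filter and 0 with cyclic loess.

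Chains of epithelial anchoring laminin were measured beside Itgb4. Lama3 read 5.41 and 5.21 at E10.5, 6.20 and 5.92 at E12.5 and 6.77 and 6.50 at E13.5. The later arrays were higher without overlap, but the difference was not called (1.28 ± 0.45 SE, adjusted p = 0.226). The same stages were measured for its β partner. Lamb3 read 4.63 and 4.57 at E10.5, 5.32 and 5.20 at E12.5 and 7.05 and 6.50 at E13.5, and was not called either (1.01, adjusted p = 0.528). Itgb1 differed by 1.63 ± 0.44 SE (adjusted p = 0.064), Itga3 by 1.59 (0.453), Lamb2 by 1.08 (0.518), Lamc1 by 0.19 (0.931), Itga6 by 0.00 (0.003; adjusted p = 1), Lamb1-1 by -0.16 (0.954) and Itgav by -0.04 (0.99).

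**Figure D5:**
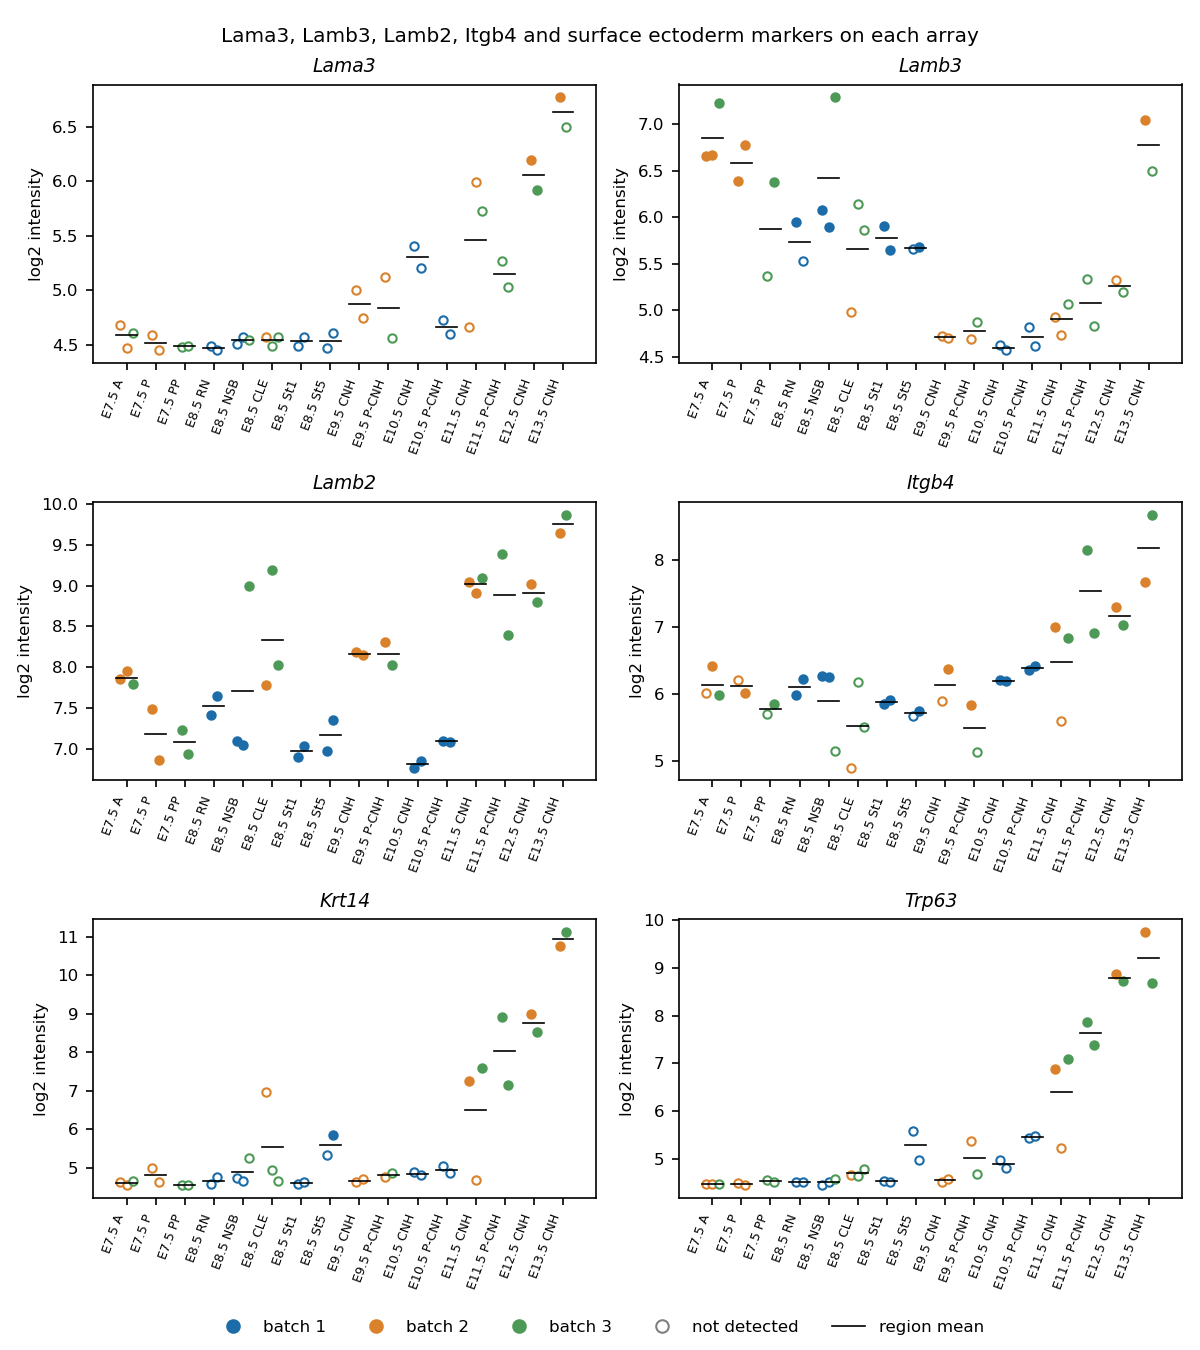
Log2 intensity on each of the 36 arrays (points coloured by batch; filled where detected; line for the region mean) by region for Lama3, Lamb3, Lamb2, Itgb4 and the surface ectoderm markers Krt14 and Trp63. Krt14 is at 4.90 and 4.80 at E10.5 and at 10.75 and 11.12 at E13.5, and Itgb4 is at 7.67 and 8.68 at E13.5.

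Surface ectoderm markers rose in the same samples. Krt14, a basal keratin, read 4.90 and 4.80 at E10.5 and 10.75 and 11.12 at E13.5 (at least 40-fold, adjusted p = 0.00936). Trp63, a regulator of stratified epithelium, read 4.98 and 4.83 at E10.5 and 9.74 and 8.68 at E13.5 (at least 12.1-fold, adjusted p = 0.000929). They were the 2 of 5 surface ectoderm genes called, Krt14 being the most abundant; Krt5 and Krt15 were each detected on 1 array. The summed level of the 5 was 7.49 and 7.45 in the E10.5 CNH, 8.62, 7.34 and 8.92 in the E11.5 CNH, 9.70 and 9.06 in the E11.5 P-CNH, 10.22 and 9.92 in the E12.5 CNH and 11.61 and 11.46 in the E13.5 CNH. E11.5 CNH replicate 2, with the lowest surface ectoderm level of the 3 (7.34), also had the lowest Itgb4 (5.58), but the other Itgb4 probe was lowest on replicate 1 (5.04, against 6.44 on replicate 2 and 6.27 on replicate 3). The part of surface ectoderm in the Itgb4 result was not tested. Spp1, a secreted integrin ligand, was higher at E13.5 as well (at least 3.39-fold, adjusted p = 0.00249), as was the leukocyte marker Tyrobp (at least 2.04-fold, adjusted p = 0.000857), 1 of 4 leukocyte genes. Fgf8, Wnt3a, Sox17, Trh, Tcf15 and Hbb-bh1 were lower.

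Within the tail bud, P-CNH was compared with CNH over E9.5, E10.5 and E11.5 to set mesoderm-fated tissue against NMP-bearing tissue. Limma called 0 of 29 members, 3 (10.3%) had an unadjusted p under 0.05, as had 4.12% of all tested probes. Of all tested probes 0.101% were called higher and 0.497% lower; the medians were -0.02 over the members and 0.00 over all tested probes (0). Lamc1 differed by 0.40 ± 0.15 SE (adjusted p = 0.723), Itgal by 0.67 (0.921), Itga3 by -0.42 (1), Itgb1 by -0.15 (1), Itga6 by -0.11 (1), Lamb1-1 by 0.20 (1) and Itgav by 0.09 (1). The pooled Itga3 value averages stages of opposite sign, at -1.12 (adjusted p = 0.878) at E9.5, -1.04 (1) at E10.5 and 0.91 (1) at E11.5. Limma did not call any of these, nor the change between E9.5 and E11.5 (2.04 ± 0.62 SE, adjusted p = 0.467). Without E11.5 P-CNH replicate 1 the count was 1, and it was also 1 without the 4 arrays with the fewest detected probes, of which that array is one. Vtn was detected on 0 of 6 P-CNH arrays and was at least 2.45-fold lower there (adjusted p = 5.74e-06), together with 3 of 5 notochord and node genes (Shh, Noto and Foxa2), Sox17, Trh and Meox1.

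Over the pathway lists as a whole, the F test called 4 of 10 basement membrane partners, 5 of 6 other integrin ligands and 9 of 16 adhesion complex genes, beside the 35.6% of all tested probes. Thbs1 and Fbn2 among the ligands and Tln1, Lims2 and Parvb among the adhesion genes were not kept, and Frem1 and Frem2 have no probe on the array. Beside the ligand calls given with each comparison, Tnc, the tenascin C gene, was undetected in P and at least 1.83-fold lower there than in A (adjusted p = 2.61e-05). Among the ligands measured Vtn was called in 7 of the comparisons between regions, higher in RN and NSB and lower in CLE, St5, the E9.5 and E10.5 CNH and the P-CNH.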

How the data were processed

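The deposited table gives, per the file headers, mean bead intensity (AVG_Signal, not normalised) and a detection p_value for each probe of 36 Illumina MouseWG-6 v2.0 arrays, 1 per pool of pieces; the authors deposited no corrected values in it. Intensities were background corrected with negative controls inferred from the detection p-values, given an offset of 16, quantile normalised and log2 transformed (neqc, limma 3.58.1, R 4.3.3), which replaced the authors' variance stabilisation and batch removal. Probes with a detection p under 0.01 on at least 1 array were kept. A linear model with 16 regions and 3 batches (18 residual degrees of freedom) was fitted to all kept probes, with limma's moderated F and contrast tests, two-sided, and Benjamini-Hochberg adjustment within each contrast. The depth of an array is its number of detected probes (10814 to 16256), and its number of replicates limits the precision.

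Named in each comparison are all called members, or the 15 with the largest difference if more, with Lamb1-1, Lamc1, Itgb1, Itgav, Itga3 and Itga6 where not called (Itga7, also planned, was not kept); other genes, including those just outside the threshold, were chosen after their values were seen. The lists were basement membrane partners, other integrin ligands, adhesion complex, and markers of notochord and node, neural tissue, anterior neurectoderm, caudal epiblast, paraxial mesoderm, posterior streak and lateral mesoderm, definitive, visceral and parietal endoderm, red blood cells, megakaryocytes, leukocytes, endothelium and surface ectoderm. Members and lists were chosen with earlier results of these data known. Summed list levels are the log2 of summed normalised intensities, with 1 probe for each listed gene on the array, whether or not it was kept. The alternatives left out the background correction, the detection filter or the batch term, or used a filter on all arrays of a region, an offset of 100, cyclic loess, an intensity trend in the variance, the BeadChip as a random or fixed effect, replicate number as a block, single batches, batch 1 with a BeadChip term, or fewer arrays. Promoters were searched with Python 3.11.15, and figures drawn with matplotlib 3.10.9. The model was also run on simulated data with changes put into the E10.5 CNH and read in its comparison with NSB. That run did not test the link of batch 1 to the other batches.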

Additional observations from a re-analysis of the deposited data

How the results depend on the processing

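The values below are numbers of member genes called, without the share of all tested probes called under the same setting. They do not show how members differ from other genes. Of 192 values for the 15 named differences under alternatives other than leaving out 1 array, 172 kept the call, 20 lost it and 0 reversed; of 531 leave-outs 482 kept it, 49 lost it and 0 reversed. The cause of a moved count was not tested. An offset of 100 gave 2 calls for RN. Cyclic loess gave 4 for St5, 1 for E9.5 CNH against NSB, 11 for E10.5 CNH against NSB and 0 for E13.5 against E10.5 CNH. Without the batch term CLE had 5 and E13.5 against E10.5 had 11. The BeadChip as a random effect (consensus correlation 0.483) gave 2 for RN, 4 for St5 and 5 for E13.5 against E10.5; as a fixed effect it gave 2 for RN. Without the detection filter E10.5 against NSB had 3 and E13.5 against E10.5 had 3. An intensity trend in the variance gave 5 for E9.5 CNH against NSB, where Itga2 was added.

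Batch 1 alone gave 3 for RN, 1 for St1, 6 for St5 and 12 for E10.5 against NSB; with batch 1 also normalised alone, an alternative chosen after seeing the data, these were 3, 1, 7 and 12. In batch 1 replicate 1 of every region was on 1 BeadChip and replicate 2 on the other, and the fits of batch 1 above have no term for this. With the BeadChip as a fixed term in batch 1, chosen after seeing the data, the counts were 3, 1, 6 and 12, with 0 for NSB. Without the 4 arrays with the fewest detected probes (E13.5 CNH replicate 2, CLE replicates 1 and 2, E11.5 P-CNH replicate 1), also chosen after seeing the data, P against A had 2, PP against P 1, RN 3, CLE 3, St5 4, St5 against PP 5, E9.5 against NSB 11 and P-CNH against CNH 1.

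The files do not say whether a replicate number pairs samples taken from the same embryos. The differences between replicates 1 and 2 were compared between regions: of 120 pairs of regions, 37 had a correlation across probes above 0.1 (median 0.03, from -0.663 to 0.606), and 8 of 15 within batch 1, where the number also stands for the BeadChip (RN with NSB 0.386, RN with St1 0.391, NSB with St1 0.365, E10.5 CNH with P-CNH 0.371). The numbers were not used as pairs in the model of all arrays. With the replicate number as a block, the count was 2 for St5 against PP, 21 for the F test, 1 for RN, 2 for St5, 5 for E9.5 and for E10.5 against NSB, 1 for E13.5 against E10.5 and 0 for the rest. In that block Itga6 at E10.5 (adjusted p = 0.0509) and Itgb4 at E13.5 (0.0625) lost their calls.

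Leaving out 1 array in turn, the counts ran from 19 to 22 for the F test, from 0 to 1 for RN, from 1 to 3 for St5, from 0 to 2 for St5 against PP, from 2 to 7 for E9.5 against NSB, from 1 to 7 for E10.5 against NSB, from 0 to 3 for E13.5 against E10.5 and from 0 to 1 for P-CNH against CNH. They ran from 0 to 0 for P against A, PP against P, NSB, CLE and St1 with limma, whose unadjusted counts stand in the report. Without NSB replicate 3 the comparisons that span batch 1 and the others could not be fitted. A region left with 1 array is assumed to vary like the others.

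Signal over background limits the low probes: it ran from 2.28 (CLE replicate 1) to 15.1 (PP replicate 2). Each region has 2 or 3 pools, the link of batch 1 with the other batches rests on 1 array, and probe sequences were not available to check what each probe detects.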
